A study of Mus musculus with 8 samples.

Results

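The immediate early transcription factors described here are 10 genes: Egr1, Egr2, Egr3, Fos, Fosb, Jun, Junb, Batf, Atf3 and Nr4a1. They were chosen by name, not by their values, out of 21938 protein-coding genes of the mouse genome. Earlier results of these data were known when they were chosen. For each gene the start bin was taken, which is the 50 kb stretch of the genome that holds the annotated start of the gene. All 10 start bins were among the 13301 autosomal start bins kept, and all 10 passed the filter on low counts. The contacts of each start bin were followed over 2 Mb on each side.

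Mouse splenic B cells were profiled by in situ Hi-C in 8 libraries. In this assay crosslinked chromatin is cut with MboI, religated and sequenced, so that a read pair records 2 places that lay close together in the nucleus. Naive B cells, isolated by depletion of other cells, were labelled with CellTrace Violet (CTV), a dye diluted at each division, and cultured with 25 µg/ml lipopolysaccharide (LPS), a bacterial product that activates B cells. Each of the 4 groups had 2 libraries. The 3 h, 10 h and 33 h imminent division groups were C57BL/6 cells sorted as activated, undivided B cells (TCRβ- CD69+, highest CTV, among other markers). The 33 h pre-S group came from C57BL/6 FUCCI mice, which carry fluorescent reporters of the cell cycle, and was sorted as CD69+ B cells of highest CTV without mAG and with high mKO2, the reporter pattern of cells before DNA synthesis. Reporter and gate therefore change together with the pre-S group and cannot be told apart from it. Per the study's methods the mice were young males and all had a C57BL/6 Pep3b background, and no allele other than the FUCCI reporters is named in the labels.

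Libraries held between 88703088 and 218945191 read pairs, and between 70.9% and 75.1% of the autosomal pairs were within a chromosome. Replicate 2 of imminent division stood apart on the sex chromosomes. Of its read ends 3.74% lay on X, against 2.39% to 2.84% in the other 7 libraries, and 0.049% lay on Y, against 0.0804% to 0.123%. The calls on the 10 genes at imminent division versus 3 h are therefore given with and without it. The 3 comparisons with 3 h share the 3 h libraries and are not independent of each other. The methods name biological duplicates, but the labels do not say which libraries came from separate mice, so p-values measure the spread between these libraries.

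Immediate early genes are transcribed within minutes of a signal, without new protein synthesis, and their products then switch on later genes. EGR1, EGR2 and EGR3 are zinc-finger proteins that bind GC-rich DNA. FOS and FOSB pair with JUN or JUNB to form AP-1, BATF and ATF3 are smaller proteins of the same leucine-zipper class that also pair with JUN proteins, and NR4A1 is an orphan nuclear receptor. In B cells these genes answer antigen receptor and LPS signals, and BATF is needed for class switching of antibodies.

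The genes lie on 9 chromosomes of GRCm38. Egr1 lies on chromosome 18 (34859823 to 34864984, plus strand), Egr2 on 10 (67535475 to 67542188, plus) and Egr3 on 14 (70077203 to 70082614, plus). Fos lies on 12 (85473890 to 85477273, plus) and Fosb on 7 (19302696 to 19310051, minus). Jun lies on 4 (95049034 to 95052222, minus) and Junb on 8 (84974484 to 84978718, minus). Batf lies on 12 (85686669 to 85709087, plus), so its start bin is 200 kb from that of Fos, and these windows overlap. Atf3 lies on 1 (191170296 to 191218039, minus) and Nr4a1 on 15 (101254269 to 101274795, plus).

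The start bins of Egr1, Fos, Jun, Batf and Atf3 hold no other protein-coding start. That of Egr2 also holds the start of Ado, that of Egr3 Bin3, that of Fosb Ercc1, that of Nr4a1 Atg101 and 6030408B16Rik, and that of Junb Gm49661, Prdx2, Rnaseh2a and Hook2. A bin's value belongs to all of the genes in it. The start bins held 44.5% to 52.6% G and C (median 48%, against 44.0% over all start bins) and 106 to 160 MboI fragments (median 124, against 123).

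RefSeq promoters of the same assembly, from 250 bases before to 50 after a start, were listed for 8 of the 10 genes. None was listed for Egr1 or Egr3. On either strand, none of the 8 genes held a full cAMP response element (CRE, TGACGTCA, 1.56% of 32536 promoters), an AP-1 site (TGACTCA, 4.45%) or an EGR site (GCGTGGGCG, 0.54%). The core TGACG, which is part of the CRE and was searched for after the sequences had been seen, was held by 7 of the 8 (all but Jun), against 17.9% of promoters. A gene with several RefSeq starts was counted once. The CArG box, bound by serum response factor, was held by Egr2 alone, against 1.48% of promoters. The 100 bases before a start are shown for 3 genes, one of each family, because each holds such letters; capitals mark the CArG box and a CRE core in Egr2, a CRE core in Fos and 2 in Nr4a1. All 3 are on the plus strand, at chr10:67537769-67537868 (Egr2), chr12:85473790-85473889 (Fos) and chr15:101266746-101266845 (Nr4a1). The Egr2 start used lies 2394 bases inside the annotated gene, and that of Nr4a1 12577 bases inside it.
Egr2: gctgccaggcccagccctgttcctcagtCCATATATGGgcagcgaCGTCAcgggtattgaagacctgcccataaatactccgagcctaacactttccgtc
Fos: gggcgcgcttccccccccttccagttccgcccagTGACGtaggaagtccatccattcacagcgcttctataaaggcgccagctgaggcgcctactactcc
Nr4a1: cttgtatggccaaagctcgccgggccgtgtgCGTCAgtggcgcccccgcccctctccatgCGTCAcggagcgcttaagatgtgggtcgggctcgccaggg
The RefSeq starts of Egr2, Fos and Nr4a1 lay in the start bin used. That of Atf3 (191183333) lay 34706 bases from the annotated start, in the neighbouring bin.

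The reach of the 10 start bins at 3 h was uneven. Over all start bins, a median of 27.2% of the counts in the 2 Mb windows came from beyond 500 kb. For Egr3 this share was 5.48% and 5.31% in the 3 h libraries, and for Fosb it was 3.15% and 2.36%. Most contacts of both genes were short-range: 74.4% (Egr3) and 74.3% (Fosb) of their counts came from within 200 kb, against a median of 52.4%. Egr3 had 32 usable partner bins on its lower side, with none between 400 and 850 kb, and 40 on its higher side, so its shares miss part of that range. At the other end stood Nr4a1, with 34.4% and 34.2% from beyond 500 kb. The other 7 genes lay between 15.3% (Atf3) and 28.5% (Egr1).

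Among the bins that could be used, Fosb had the narrowest reach of the 10. Between 98.4% and 99.8% of its counts in each of the 8 libraries came from a stretch that runs from 500 kb on the lower side to 650 kb on the higher side. Only 55 of its partner bins could be used, 18 of them on the higher side. None of those lay between 750 and 1750 kb, so its reach on the higher side is seen only in part. At 3 h, 0 of 1300 and 0 of 2284 counts came from beyond 1 Mb, which allows shares of up to 0.231% and 0.131%. At 10 h the counts were 3 and 6, at pre-S 2 and 6, and at imminent division 10 of 2384 (0.419%) and 20 of 2995 (0.668%). These limits cover counting error only. No other gene of the 10 had fewer than 33 counts beyond 1 Mb in a library.

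Jun faced almost entirely to one side. At 3 h, 16.1% and 15.3% of its counts came from the lower side, and the share stayed between 13.5% and 18.3% in the other 6 libraries. Its contacts over the chromosome's mean at the same distance (observed over expected) were highest at a bin 800 kb away on the higher side (95849948 to 95900124), where no protein-coding gene starts. There the ratio was 12.3 and 11.8 at 3 h, 12.4 and 11.3 at 10 h, 12.5 and 10.1 at pre-S and 8.46 and 10.5 at imminent division. The bins at 750 kb and 650 kb followed, with means over the 8 libraries of 9.3 and 8.1. By 1 Mb the ratio was at or below 1.23 in every library.

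**Figure D1:**
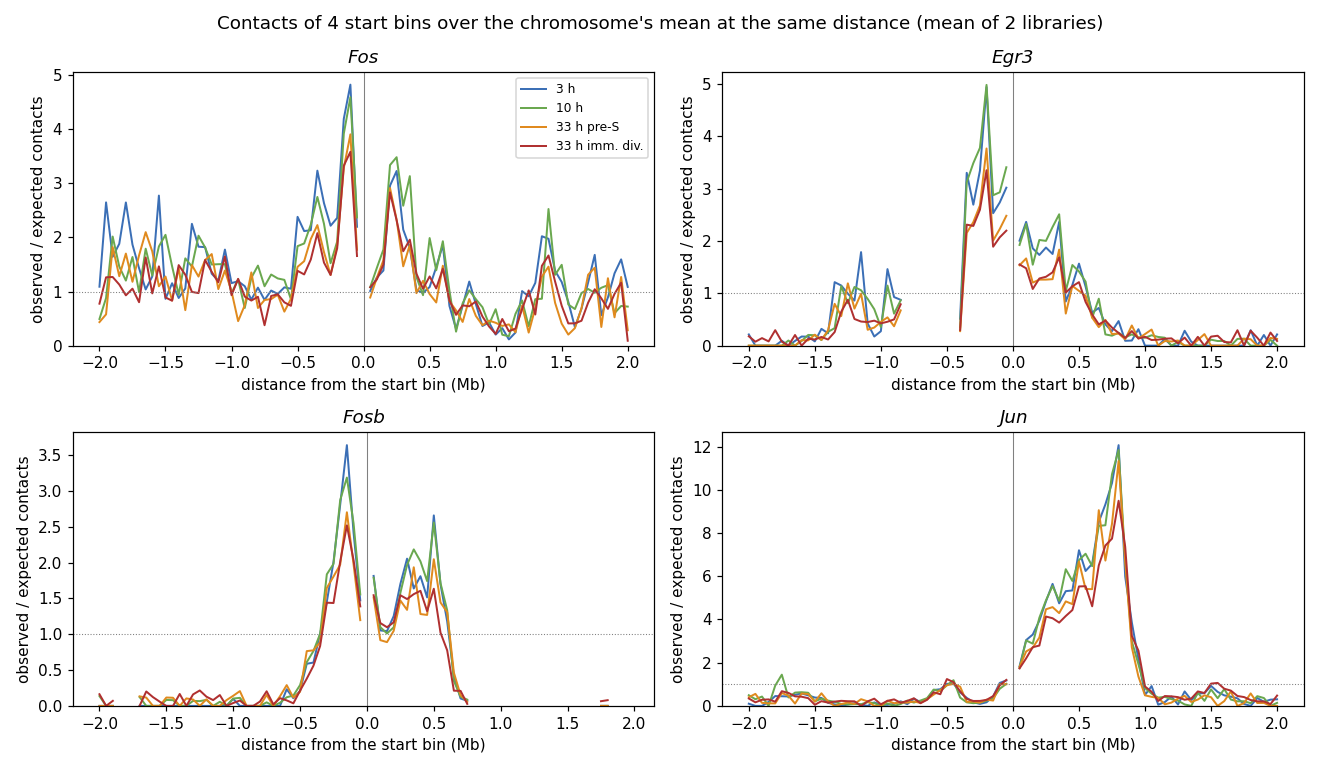
Observed over expected contacts (vertical axis, ratio to the chromosome's mean at the same distance) of the start bins of Fos, Egr3, Fosb and Jun with partner bins up to 2 Mb away (horizontal axis, Mb, lower coordinates to the left), as the mean of the 2 libraries of each group; gaps are bins left out. Fosb falls close to 0 beyond about 0.65 Mb, Egr3 lies low on the right beyond that distance but has further peaks on the left past its gap, Jun peaks 0.8 Mb to the right, and the 33 h lines run below the 3 h and 10 h lines at most peaks. The ratio also drops where the tested change was near 0. For Fos 100 kb to the left it went from 5.10 and 4.55 at 3 h to 3.37 and 3.79 at imminent division (log2 change +0.01).

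The strongest partners named here are the 3 bins at least 100 kb away with the highest ratio of observed to expected contacts over the 8 libraries. For Egr1 they lay 650 to 850 kb to the higher side, and the bin of Matr3 and Paip2, genes of RNA binding and translation, measured 4.2. For Egr2 all 3 were bins without a protein-coding start, 200 to 300 kb to the higher side, and the ratio of the bin at 250 kb lay between 3.98 and 5.9 in the 8 libraries. For Egr3 they lay 200 to 350 kb to the lower side, led by a bin without a protein-coding start (4.26). For Fosb they lay 100 to 200 kb to the lower side, led by the bin of Gipr and Eml2 (3.01).

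Fos and Batf, both parts of AP-1 complexes, were among each other's neighbours. The 3 strongest partners of Fos were the bins of Tmed10 (4.22), a carrier protein of the early secretory pathway, of Nek9 (3.68), a kinase of mitosis, and of Batf (3.01). The 3 of Batf were the bin of Nek9 (4.54), a bin without a protein-coding start 150 kb away (4.01) and the bin of Tmed10 (3.69). The pair of Fos and Batf held 80 and 153 counts at 3 h, 132 and 157 at 10 h, 122 and 93 at pre-S and 193 and 267 at imminent division. Over expectation these were 3.02 and 2.89, then 3.46 and 3.21, then 3.08 and 2.74, then 2.63 and 3.03. The ratio thus stayed near 3 in every library, and the groups overlapped except that both 10 h libraries lay highest.

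Among the strongest partners of Junb was the bin of Ier2, another immediate early gene, 300 kb to the lower side (2.85, between 2.21 and 4 in the 8 libraries). A bin 1.25 Mb away ranked above it at 2.91 but rested on 9 to 31 counts a library. The strongest partner of Nr4a1 was the bin of Eif4b, a translation initiation factor, 800 kb to the higher side (3.49). Its ratio was 2.64 and 2.81 at 3 h, 3.45 and 3.88 at 10 h, 4.54 and 3.89 at pre-S and 3.22 and 3.53 at imminent division, so that all 6 later libraries lay above both 3 h libraries. It was not among the bin pairs that passed a test. Among the strongest partners of Atf3 was the bin of Nek2, a kinase of mitosis, 600 kb to the higher side (2.7, between 1.76 and 3.85 in the 8 libraries).

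Summed contacts were the next comparison, which asks whether a start bin as a whole gained or lost contacts within its window after 3 h. Values are normalized contacts in CPM, scaled to the library total and corrected for a trend with abundance between libraries, so that a fall is a fall relative to start bins of like abundance. Each gene is compared only with itself, since windows differ in their usable bins. From 3 h to 10 h none of the 10 genes passed the test. By 33 h Egr3, Fosb and Egr1 had fallen in the pre-S cells, and Egr3, Fosb, Junb and Egr1 had fallen in the cells at imminent division. No gene rose in this fit. With only the bin pairs that stood clearly above the contacts usual at their distance (a fitted curve plus 2 mean absolute residuals), Batf (+0.19, adjusted p = 0.00854) and Jun (+0.13, adjusted p = 0.037) rose at imminent division, where 38.8% of the start bins tested passed in either direction. Only 7 of the 10 genes could be tested in this way, without Junb, Atf3 and Nr4a1. Of Egr3, Fosb and Egr1 only Fosb passed at imminent division in this way. With windows of 1 Mb on each side Jun rose at pre-S (+0.12, adjusted p = 0.0358), where 32.5% of start bins passed in either direction. All the falls of Egr3, Fosb, Junb and Egr1 named above passed in these windows too. In the windows of 2 Mb, with the trend corrected, Egr2, Fos, Jun, Batf, Atf3 and Nr4a1 did not pass the test in any comparison with 3 h.

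These calls depended on the scaling. With library totals alone, without the trend correction, the median of all start bins moved by +0.10 at 10 h, +0.02 at pre-S and +0.21 at imminent division, where 70.1% of them passed and 97.3% of those rose. At imminent division only Egr3 then fell (-0.17, adjusted p = 0.00375), while Fosb (-0.05), Junb (-0.05) and Egr1 (+0.03) did not pass. Fosb then measured 14.7 and 13.4 CPM at 3 h and 13.2 and 13.7 at imminent division, which overlapped. At pre-S 6 genes fell, Egr1, Egr2, Egr3, Fos, Fosb and Junb, and at 10 h Atf3 (+0.18, adjusted p = 0.0273) and Nr4a1 (+0.20, adjusted p = 0.0185) rose. Of all start bins 40.1% passed at pre-S and 13.5% at 10 h with this scaling, and 64.3% and 99.9% of those rose.

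Egr3 measured 17.2 and 17.8 at 3 h, 17.9 and 18.1 at 10 h, 14.7 and 15.3 at pre-S and 14.3 and 13.9 at imminent division. Both 33 h groups lay below both earlier groups with no overlap, and imminent division lay below pre-S. Fosb measured 15.3 and 14.3 at 3 h, 14.7 and 15 at 10 h, 12.3 and 12.1 at pre-S and 12.3 and 12.5 at imminent division. The 3 h and 10 h libraries overlapped, and the 33 h libraries lay apart from them. Junb measured 18.4 in both libraries at 3 h, 18.6 and 18.5 at 10 h, 17.5 and 17.1 at pre-S and 16.6 and 16.4 at imminent division. Egr1 measured 16.2 and 16.3 at 3 h, 16.4 and 16.2 at 10 h, 15.1 and 14.8 at pre-S and 15 and 14.7 at imminent division. In both genes every 33 h library lay below every earlier one. By contrast Batf measured 20 and 19.9 at 3 h and between 20.4 and 21.2 in the 4 libraries at 33 h, which all lay above 3 h without passing the test.

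**Figure D2:**
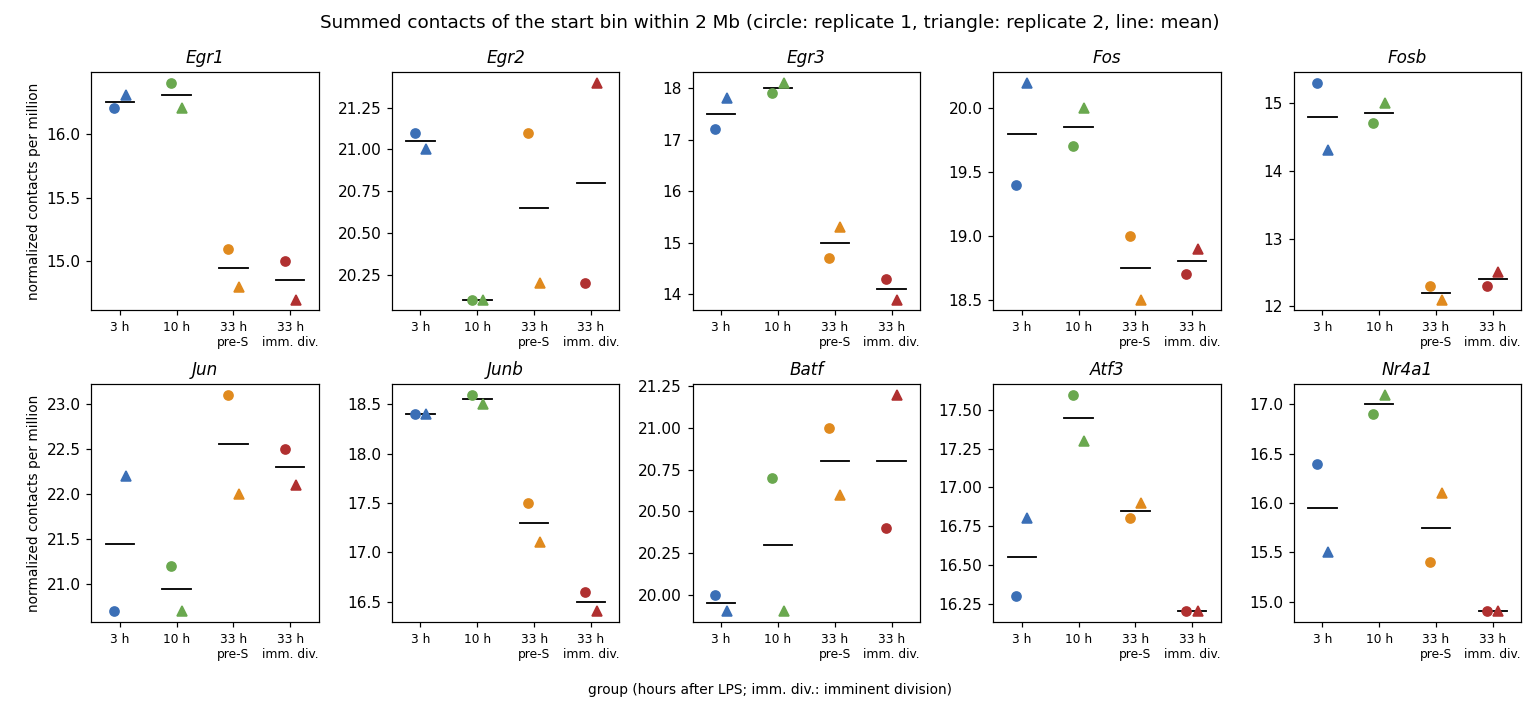
Normalized contacts of each start bin in CPM (scaled to the library total and corrected for the trend with abundance), summed within 2 Mb (vertical axes, a separate range for each gene that does not start at 0), for the 2 libraries of each group (points) with their mean (line). In Egr1, Egr3, Fos, Fosb and Junb all 4 libraries at 33 h lie below all 4 earlier ones; with library totals alone Fos, Fosb and Egr1 at imminent division overlap 3 h, and with the bins' interchromosomal coverage in the scaling none of these genes passes, and Egr1 at imminent division is at +0.002.

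At 10 h versus 3 h, 0 of the 10 genes passed 5% FDR (false discovery rate) in edgeR's quasi-likelihood test over 13274 start bins, of which 0.0678% passed. DESeq2 also called 0, and 1 gene had an unadjusted p under 0.05 in each of these tests. In edgeR this was Nr4a1 (log2 change +0.10, SE 0.042, adjusted p = 0.369). At pre-S versus 3 h, 3 of 10 fell, against 35.5% of all start bins that passed in either direction and 17.1% that fell. Egr3 fell by 0.22 on the log2 scale (SE 0.043, adjusted p = 0.000705), Fosb fell by 0.27 (SE 0.046, adjusted p = 0.000255) and Egr1 fell by 0.12 (SE 0.041, adjusted p = 0.0267). At imminent division versus 3 h, 4 of 10 fell, against 40.1% that passed in either direction and 20% that fell. DESeq2 and TMM factors each gave 6 falls at pre-S and 9 at imminent division. Of all start bins 40.1% and 46.2% passed in DESeq2, and 50% and 48.1% of those rose. With TMM factors 44.3% and 50.5% passed, and 53.9% and 50.6% of those rose. The 9 falls take in Batf or Jun or both, which were at +0.06 and +0.05 with the trend corrected in edgeR. In that edgeR fit Egr3 fell at imminent division by 0.31 (SE 0.040, adjusted p = 1.28e-05), or fell by 19.6%, and Fosb fell by 0.25 (SE 0.042, adjusted p = 0.000142). Junb fell by 0.15 (SE 0.037, adjusted p = 0.0026) and Egr1 fell by 0.13 (SE 0.038, adjusted p = 0.0104).

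The libraries at imminent division did not overlap those of 3 h in 8 of the 10 genes, and 7 of these were lower, all but Batf; over all start bins, 34.5% were lower and 34.8% higher in this way. Over the 10 genes the median change was +0.01 at 10 h, -0.05 at pre-S and -0.08 at imminent division, and over all start bins it was within 0.01 of 0 in each. Imminent division versus pre-S gave 0 of 10, against 4.02% of start bins; 1 gene, Egr3, had an unadjusted p under 0.05 (-0.09, 95% interval -0.17 to -0.01, adjusted p = 0.207), and DESeq2 gave 0. With library totals alone 7 genes rose in this comparison, against 73.3% of start bins that passed. Without replicate 2 of imminent division, Egr3 (-0.28, adjusted p = 8.08e-05), Fosb (-0.26, adjusted p = 0.000341) and Junb (-0.14, adjusted p = 0.0196) still passed, and Egr1 did not (-0.11, adjusted p = 0.0663).

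The interchromosomal coverage of the bins also changed, and whether it bears on these falls was not tested. It was lower in 10 of 10 genes at pre-S (log2 change -0.29 to -0.12, against a median of -0.11 over all start bins) and in 10 of 10 at imminent division (-0.26 to -0.04, against -0.015), where Fosb at -0.26 and Egr3 at -0.23 were lowest. Among all start bins 74.1% were lower at pre-S and 55.4% at imminent division. With this coverage included in the offsets, 0 of 10 genes passed at pre-S and 0 of 10 at imminent division. Of all start bins 25.9% and 34% passed then. At imminent division Egr3 was at -0.10 (adjusted p = 0.134), Fosb at -0.02 (adjusted p = 0.825), Junb at -0.11 (adjusted p = 0.0933) and Egr1 at +0.002.

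Single bin pairs were tested next, to see where in the windows contacts were lost. The genes had 465 bin pairs above background, between 21 for Fosb and 71 for Nr4a1. At 10 h versus 3 h, 0 of 465 passed 5% FDR in edgeR (39 at an unadjusted p under 0.05; DESeq2 called 0), against 0.000732% of 1229094 bin pairs of the genome within 2 Mb. At pre-S, 2 passed, against 0.76% (0.373% weaker), and both were weaker. At imminent division 12 passed, against 1.78% (1.11% weaker), and all 12 were weaker, in Egr1, Egr2, Egr3, Fos, Junb and Nr4a1. DESeq2 gave 13 at pre-S and 26 at imminent division, all weaker. Of all bin pairs 0.457% and 1.37% passed in DESeq2, and only 2.4% and 0.5% of those were stronger. In edgeR Fosb, Jun, Batf and Atf3 had none in any comparison. Over the genome, 16.2% of start bins had at least 1 weaker pair at pre-S and 39.5% at imminent division, against 2 and 6 of the 10 genes.

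Egr3 had 3 weaker pairs at imminent division. With the bin of Ccar2 and Pdlim2, 100 kb to the higher side, it held 118 and 211 counts at 3 h, 148 and 216 at 10 h, 112 and 105 at pre-S and 176 and 218 at imminent division. Over expectation these were 2.51 and 2.22 at 3 h against 1.45 and 1.51 at imminent division (log2 change -0.45, SE 0.12, adjusted p = 0.0264). The next bin, of Sorbs3, went from 2.07 and 1.66 at 3 h to 1.09 and 1.08 (-0.63, SE 0.16, adjusted p = 0.019). The third, 950 kb to the lower side, rested on 4 to 16 counts a library.

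Fos had 2 weaker pairs, next to each other on the lower side. With the bin of Rps6kl1 and Pgf at 300 kb it measured 2.71 and 2.56 over expectation at 3 h and 1.55 and 1.52 at imminent division (-0.64, SE 0.18, adjusted p = 0.0337). With the bin of Eif2b2, a translation factor, at 250 kb it measured 2.33 and 2.10, then 1.35 and 1.26 (-0.64, SE 0.18, adjusted p = 0.0372). The groups did not overlap in either pair, but this does not set the 2 pairs apart. With the bin of Nek9 at 150 kb, which did not pass (log2 change +0.05), the ratio went from 4.40 and 3.98 to 3.33 and 3.32.

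The weaker pairs of Junb at imminent division were with the bin of Lyl1 at 250 kb (2.51 and 2.33 at 3 h, 1.54 and 1.27 later, -0.68, adjusted p = 0.0194) and with the bin of Il27ra and Palm3 at 950 kb (3.46 and 2.75, then 1.5 and 1.31, -1.21, adjusted p = 0.0227). The pair at 950 kb rested on 11 to 30 counts a library. Lyl1 is a transcription factor of blood cells and Il27ra a cytokine receptor chain. At pre-S, Junb had a weaker pair with the bin of Fbxw9 and Wdr83 at 100 kb on the other side, which measured 2.82 in both 3 h libraries and 2.02 and 1.74 at pre-S (-0.48, SE 0.12, adjusted p = 0.0323). Nr4a1 had a weaker pair with the neighbouring bin of Grasp, from 2.54 and 2.57 at 3 h to 1.75 and 1.88 (-0.32, SE 0.081, adjusted p = 0.0154). This was the best counted of the 12, with 317 and 632 counts at 3 h.

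Egr1 had weaker pairs 850 kb (-0.83, adjusted p = 0.0499) and 1150 kb (-1.63, adjusted p = 0.0402, on 5 to 33 counts a library) to the higher side. The first was with the bin of Tmem173, which encodes the DNA-sensing adaptor STING. The pair at 850 kb measured 3.79 and 3.87 at 3 h, 3.90 and 3.77 at 10 h, 3.21 and 3.11 at pre-S and 2.44 and 2.04 at imminent division. Egr2 had weaker pairs 1450 kb to the higher side (-1.48, adjusted p = 0.0145, on 11 to 25 counts a library) and 600 kb to the lower side (-0.79, adjusted p = 0.0405). In the latter replicate 1 of 3 h stood at 4.73 and replicate 2 at 2.10, both above 1.70 and 1.83 at imminent division, while counts scaled to the library total overlapped between the groups. Without replicate 1 of 3 h the change was -0.26. At pre-S the pair of Egr2 with the bin of Jmjd1c and Reep3 at 450 kb was weaker (-1.20, adjusted p = 0.049), on 10 to 55 counts a library.

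**Figure D3:**
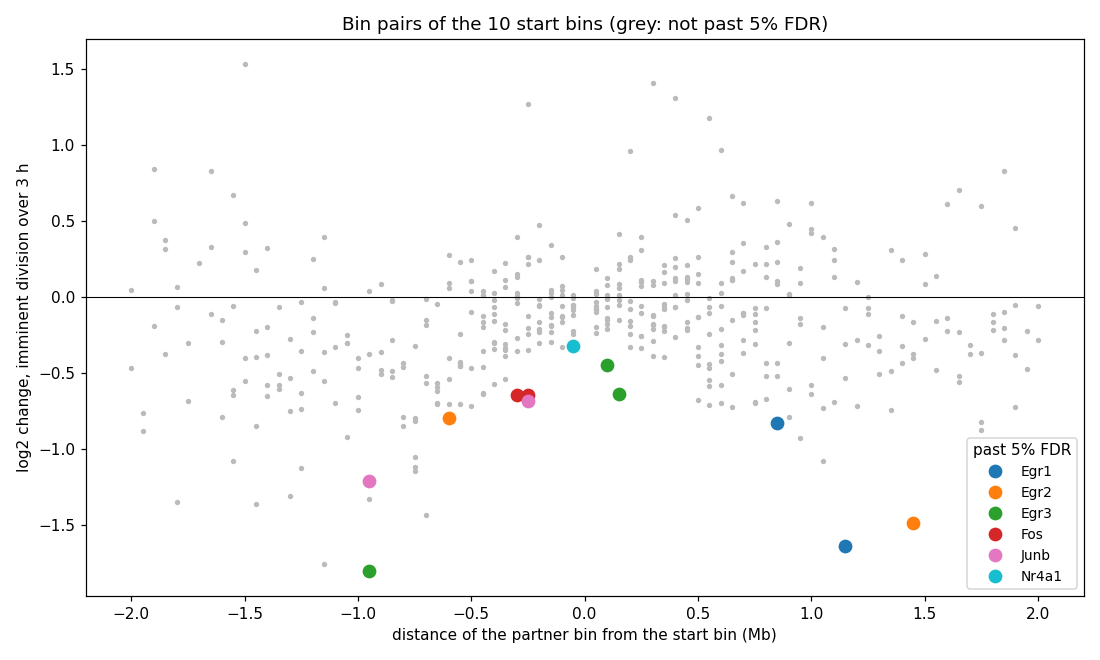
Log2 change from 3 h to imminent division (vertical axis) of the 465 tested bin pairs of the 10 start bins against the distance of the partner bin (horizontal axis, Mb, negative for lower coordinates). Coloured points are the 12 pairs past 5% FDR, all below 0, and grey points are the rest, among them Nr4a1 pairs at 0.3 and 0.4 Mb with changes of +1.41 and +1.31.

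All 12 pairs kept their sign without replicate 2 of imminent division and none of them passed (adjusted p between 0.0531 and 0.29); 2 pairs passed then, both weaker. Without replicate 1 of 3 h, 1 pair passed at imminent division. With the interchromosomal coverage of both bins in the offsets, 9 pairs passed at imminent division, 5 of them stronger, and 2 at pre-S, both stronger. Of all bin pairs within 2 Mb, 3.47% and 2.75% passed with these offsets, and 46.1% and 43.8% of those were stronger.

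Insulation was then compared. The insulation score of a bin is the log2 of the mean contact between the 500 kb before it and the 500 kb after it, over the chromosome's mean. A high score means many contacts across the bin, and a low score a boundary. At 3 h all 10 genes scored above 0 and above the middle of all bins, from the 71.2nd percentile (Nr4a1) to the 99.8th (Egr3). Local minima of the score were not looked for, so this does not tell whether a gene sat at a boundary. From 3 h to 10 h no score passed the test. By 33 h the score had fallen in all 10 genes in the pre-S cells and in all but Jun in the cells at imminent division. These are falls relative to the chromosome's mean. Contacts across the bins scaled to library totals alone were not tested. Scores also fell in 43.9% and 46.5% of the start bins in A, the compartment that holds the 10 genes, and in 21.3% of all bins in each group, while the median of all bins moved up. With quantile normalization the scores fell in 7 and 5 genes, and Egr2 in both groups and Egr3 at pre-S turned above 0. Of all bins 51.3% and 46.1% passed then, and 51.9% and 50.8% of those rose.

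Junb fell most of the 10 genes at pre-S. At imminent division its fall was close to that of Egr3, and without replicate 2 of that group both changed by -0.53. Junb scored 0.67 and 0.57 at 3 h, 0.58 in both libraries at 10 h, 0.12 and 0.14 at pre-S and 0.09 and 0.17 at imminent division. Every library at 33 h lay below every earlier one. Egr3 scored 1.99 and 1.88 at 3 h, 2.06 and 2.03 at 10 h, 1.58 and 1.67 at pre-S and 1.41 and 1.53 at imminent division. It stayed the highest of the 10 genes in every library. Fosb scored 1.09 and 1.00 at 3 h, 1.03 and 0.97 at 10 h, 0.59 and 0.69 at pre-S and 0.56 and 0.71 at imminent division. Nr4a1 scored 0.34 and 0.18 at 3 h and 0.26 and 0.29 at 10 h, and all 4 of its libraries at 33 h were below 0, at -0.16 and -0.04 (pre-S) and -0.10 and -0.04 (imminent division).

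Fos scored 1.27 and 1.19 at 3 h, 1.33 and 1.34 at 10 h, 1.01 and 0.96 at pre-S and 0.91 and 1.02 at imminent division. Its neighbour Batf scored 1.01 and 0.87, then 1.09 and 1.2, then 0.62 and 0.63, then 0.70 and 0.75. Both had their highest values at 10 h and their groups at 33 h below all others. Jun differed from the other 9 in its levels: it scored 0.29 and 0.26 at 3 h, 0.12 and 0.16 at 10 h, 0.08 and 0.00086 at pre-S and 0.25 and 0.32 at imminent division, which overlapped 3 h. In Egr1, Egr2 and Atf3 every library at 33 h lay below every earlier one.

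**Figure D4:**
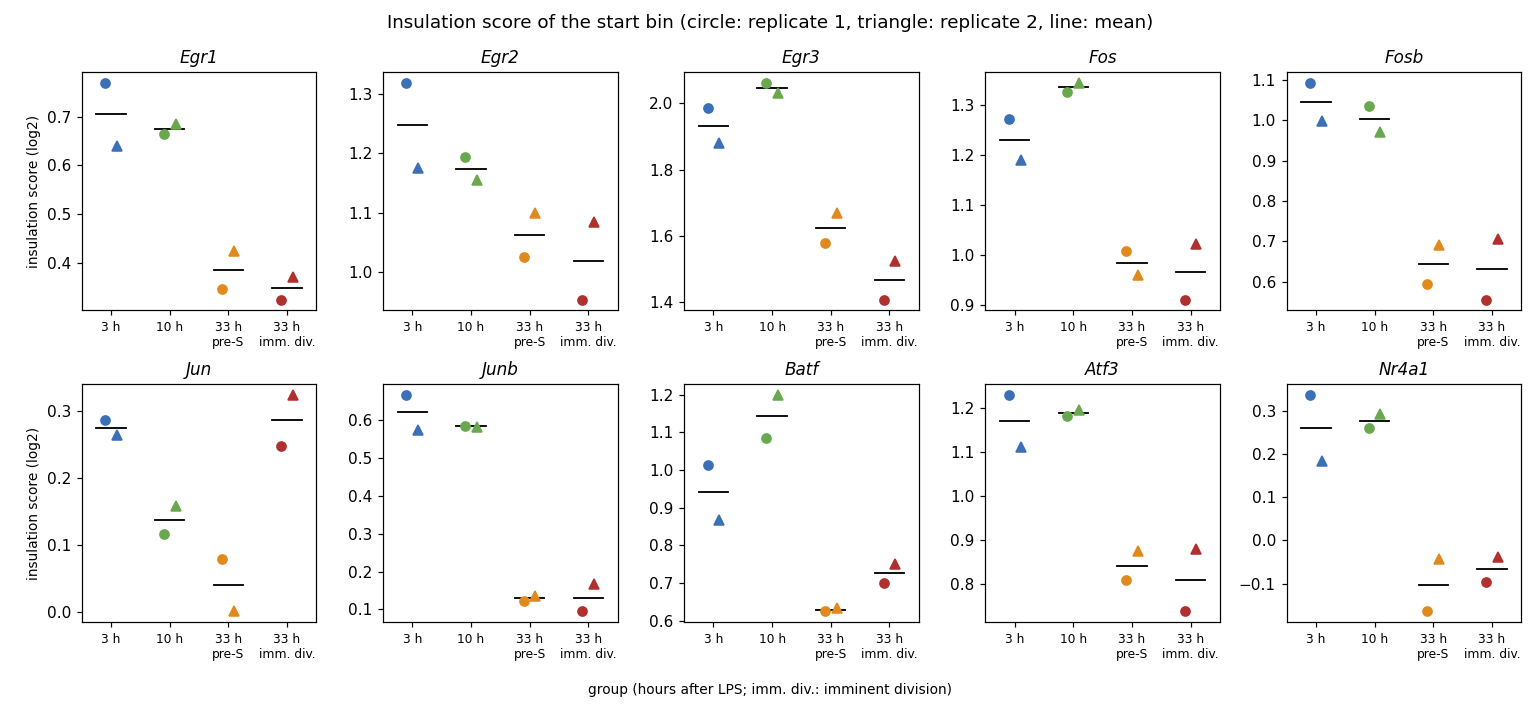
Insulation score (log2, vertical axes, a separate range for each gene) of each start bin in the 2 libraries of each group (points) with their mean (line). Both 33 h groups lie below both earlier groups in every gene except Jun, where imminent division lies at the level of 3 h; under quantile normalization Egr2 at both 33 h groups and Egr3 at pre-S change sign.

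In limma's moderated test over 46781 bins, 0 of 10 passed at 10 h, as did 0% of all bins; 2 genes had an unadjusted p under 0.05, Jun (-0.14) and Batf (+0.20). At pre-S 10 of 10 fell, against 59% of bins that passed in either direction and 21.3% that fell. The changes ran from -0.49 (Junb, SE 0.055, adjusted p = 0.00065) to -0.18 (Egr2, SE 0.068, adjusted p = 0.0405). At imminent division 9 of 10 fell, against 65.2% that passed in either direction and 21.3% that fell, from -0.49 (Junb, SE 0.055, adjusted p = 0.000202) and -0.47 (Egr3, SE 0.064, adjusted p = 0.000433) to -0.22 (Batf, SE 0.065, adjusted p = 0.0166). Jun was at +0.01 (95% interval -0.10 to +0.12). The median over the 10 genes was -0.32 at pre-S and -0.34 at imminent division. Over all bins it was +0.06 and +0.11, and over the 10079 start bins in the A compartment -0.13 and -0.13. Without replicate 2 of imminent division the same 9 genes passed, between -0.53 and -0.24. At the bin of the RefSeq start of Atf3 the score fell too, by 0.29 at pre-S and by 0.34 at imminent division.

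The balance between the sides of a gene was tested as the log2 ratio of contacts with the 1 Mb below to contacts with the 1 Mb above, per 100 kb region, where a large ratio of either sign marks a boundary. At 3 h Jun had by far the largest, at -2.65 and -2.69 (the 99.6th percentile of size over all regions), and it lay between -2.74 and -2.49 in all 8 libraries. At 10 h and at pre-S no gene passed the test. At imminent division Egr1, Fos, Fosb and Nr4a1 changed, each towards a more even balance. Fos went from 0.62 and 0.45 at 3 h through 0.34 and 0.25 at 10 h to 0.19 and 0.14 at imminent division, with pre-S at 0.42 and 0.31. Nr4a1 went from 0.71 and 0.53 to 0.27 and 0.24, with 0.55 and 0.61 at 10 h and 0.52 and 0.61 at pre-S. Egr1, which faces the other way, went from -0.68 and -0.63 to -0.34 and -0.29. Fosb went from 0.24 and 0.23 to -0.10 and 0.07.

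In edgeR's glmTreat test against a fold of 1.1, 4 of 10 passed at imminent division, against 21.6% of 23361 regions: Fos (-0.35, adjusted p = 0.000125), Nr4a1 (-0.35, adjusted p = 0.000497), Egr1 (+0.34, adjusted p = 0.000206) and Fosb (-0.25, adjusted p = 0.03). At 10 h 0 of 10 passed, against 0.381% (1 unadjusted, Fos at -0.22), and at pre-S 0 of 10, against 12.3% (0 unadjusted). All 4 passed without replicate 2 of imminent division. Fosb did not pass without either 3 h library (adjusted p = 0.0621 and 0.0779) or without replicate 1 of imminent division (0.362). Nr4a1 did not pass with flanks of 500 kb (-0.18). In the wider windows of 2 Mb, the share of Nr4a1's counts from the lower side went the same way, from 66.3% and 65.4% at 3 h to 57.5% and 57.2% at imminent division. Its share from beyond 500 kb was 34.4% and 34.2% at 3 h and between 37.4% and 40.8% in the 6 later libraries, while the median of all start bins moved between 27.2% and 29%.

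All 10 genes were in the A compartment, the more open and gene-rich part of the genome, in all 8 libraries, as were 76.6% of start bins. The compartment component, which is above 0 in A, lay between 1.03 (Jun at 3 h) and 1.48 (Nr4a1 at pre-S) over the 10 genes and 8 libraries. It was not a check of cell type, since the start bins of 7 of 7 B cell, 5 of 5 T cell, 4 of 4 myeloid and 3 of 3 hepatocyte marker genes lay in A too. In limma's test over 23789 bins, 0 of 10 genes passed at 10 h (0 unadjusted), against 4.88% of bins, and 0 of 10 at imminent division (1 unadjusted, Egr3), against 38.4%. At pre-S 1 of 10 passed, against 31.6% (15.4% that rose). This was Egr3, with 1.31 and 1.23 at 3 h and 1.33 and 1.40 at pre-S (+0.10, SE 0.032, adjusted p = 0.0469). Leaving out any one of 6 of the 8 libraries ended this call, with adjusted p up to 0.299 (without replicate 2 of pre-S), and bins of 250 kb gave 10 of 10 genes, where 64.2% of all bins passed and 63.7% of those rose, against 48.7% with bins of 100 kb.

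Other immediate early genes and relatives of the 10 were followed as a list of 43 genes, of which 41 had a start bin (Mkl1 and Mkl2 were not found under these names). At 10 h 0 of the 41 passed for summed contacts in edgeR (10 at an unadjusted p under 0.05) and 0 in DESeq2 (4 unadjusted). For insulation 0 passed in limma (10 unadjusted). Of all 13274 start bins 1588 had such an unadjusted p in edgeR and 843 in DESeq2, as did 6498 of 46781 bins in limma. For summed contacts 4 rose and 10 fell at pre-S, and 4 rose and 16 fell at imminent division, with medians of -0.04 and -0.05. Of all start bins, 35.5% and 40.1% passed in either direction. Without replicate 2 of imminent division 4 rose and 12 fell there, against 35.7% of all start bins that passed. Insulation scores fell in 24 and 29 of 41 and rose in none, with medians of -0.21 and -0.26. They fell in 35.2% and 36.8% of all start bins, and in 43.9% and 46.5% of the start bins in A. The insulation counts were not recomputed without that library. The smallest p-values for summed contacts at imminent division belonged to Jund, the third JUN protein (-0.25, SE 0.037, adjusted p = 5.11e-05), Klf6, a zinc-finger factor (+0.36, SE 0.055, adjusted p = 6.64e-05), Nab1, a corepressor of EGR proteins (+0.24, SE 0.038, adjusted p = 8.59e-05), and Ier3, a survival gene (-0.27, SE 0.042, adjusted p = 0.000107). Dusp5, a phosphatase of ERK, also fell (-0.24, SE 0.043, adjusted p = 0.000318).

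By family, the 17 AP-1, ATF and BATF relatives had 1 rise and 5 falls in summed contacts at imminent division, and 11 of 17 insulation scores fell. Of all start bins 20% fell in summed contacts and 36.8% in insulation, and 46.5% of those in A fell in insulation. The family counts that follow are to be read against these shares too. The families are small and are given as counts. Of the 3 genes of the EGR family and its corepressors 2 rose in summed contacts, Nab1 and Egr4 (+0.11, adjusted p = 0.0416), and Nab2 fell (-0.14, adjusted p = 0.00899). Both other NR4A receptors, Nr4a2 and Nr4a3, fell in insulation (-0.21 and -0.27) without passing in summed contacts. Of the 3 genes of serum response factor and its partners, all fell in insulation, and Elk3 fell in summed contacts (-0.25, adjusted p = 0.000354). Of the 16 other immediate early genes 1 rose and 9 fell, among them Per1, a clock gene (-0.21, adjusted p = 0.000448), and Csrnp1 (-0.17, adjusted p = 0.00262), and 12 fell in insulation. Ier2, the neighbour of Junb, fell in summed contacts (-0.11, adjusted p = 0.0359) and in insulation (-0.45, adjusted p = 0.00144). Egr4, Nab2, Nr4a2, Nr4a3 and Ier2 were singled out after their values were seen. The windows of Atf1, Atf7, Batf3, Ier2 and Jdp2 overlap those of the 10 genes, so they are not separate regions.

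The start bins whose summed contacts ran most like those of Egr3 over the 8 libraries were those of Tyk2, a Janus kinase (Pearson r 0.988), Ddx18, a helicase (0.987), and Secisbp2, a selenoprotein factor (0.986). The correlations describe 8 shared libraries and were picked as the highest over all start bins, so no p is given.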

How the data were processed

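The authors aligned the in situ Hi-C reads to mm10 with diffHic, marked duplicates and removed dangling ends and long fragments; the deposited values are raw counts of read pairs for every 2 bins of 50 kb, unscaled. The bins were rebuilt from MboI sites of GRCm38, and genes were placed by GENCODE start. Of 48088 autosomal bins 756 were left out, for undetermined sequence above 10% or interchromosomal coverage more than 4 times above or below the median; the ENCODE excluded regions were not used here.

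The 2 replicates a group were fitted over all 8 libraries, with 3 contrasts against 3 h. Start-bin sums and bin pairs (at least 10 counts in all and over 4 times the background) were tested with edgeR's (4.0.16) quasi-likelihood test after a correction for abundance-dependent trends between libraries, compartment components (100 kb bins) and insulation scores with limma (3.58.1), and boundary ratios with edgeR's glmTreat at a fold of 1.1. The Benjamini-Hochberg adjustment ran over all features, at 5% FDR; DESeq2 (1.42.0), TMM factors, other scalings, filters and bin widths, a replicate block and leaving out each library were alternatives. Scripts were tested on simulated data. Windows held 1199 to 5004 counts. Promoters were RefSeq's. The genes and lists were chosen with earlier results of these data known. Named partners are the 3 with the highest mean ratio at 100 kb or more; named pathway genes have the smallest p-values at imminent division. One partner bin of Atf3 and one sorting marker are not reported here.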

Additional observations from a re-analysis of the deposited data

Results flagged for a closer look

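For 6 of the 10 genes the 10 h and 33 h libraries lay on opposite sides of 3 h, in trend-corrected summed contacts (4 genes) or in the insulation score (3 genes). Over all start bins the shares were 28.1%, 13.4% and 17.6%. The genes were picked on these same values, so the differences between 33 h and 10 h are a description, the difference was not tested independently and no p is given. In summed contacts (log2 scale), Egr3 differed from 10 h by -0.263 at pre-S (SE 0.042) and by -0.353 at imminent division (SE 0.039). At imminent division Junb differed by -0.167 (SE 0.036), Atf3 by -0.103 (SE 0.037) and Nr4a1 by -0.191 (SE 0.039). Junb also lay on opposite sides at pre-S, at -0.097 (SE 0.039). From 3 h to 10 h these genes had changed by +0.013 (Junb), +0.038 (Egr3), +0.067 (Atf3) and +0.096 (Nr4a1), and none passed. Atf3 changed by -0.035 from 3 h to imminent division, also without passing. In the windows of 2 Mb, with the trend corrected, Atf3 and Nr4a1 had passed edgeR's test in no comparison with 3 h. With library totals alone both rose at 10 h.

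In the insulation score, Egr3 differed from 10 h by -0.422 at pre-S and by -0.58 at imminent division (SE 0.064). Fos differed by -0.352 and -0.37 (SE 0.059). Batf differed by -0.514 and -0.418 (SE 0.065). With replicate 1 of imminent division alone, the differences from the 10 h mean were -0.33 (Egr3), -0.161 (Junb), -0.102 (Atf3) and -0.193 (Nr4a1) in summed contacts, and -0.639 (Egr3), -0.425 (Fos) and -0.443 (Batf) in insulation.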

How the results depend on the processing

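In summed contacts, TMM factors gave 6 genes at pre-S and 9 at imminent division (44.3% and 50.5% of all start bins passed), DESeq2 6 and 9 (40.1% and 46.2%), and the bins' interchromosomal coverage in the offsets 0 and 0 (25.9% and 34%), with Egr1 at imminent division turned to +0.0020. Library totals alone, chosen after seeing the data, gave 2 at 10 h, 6 at pre-S, 1 at imminent division and 7 for imminent division versus pre-S (all rises), with Egr1 at imminent division turned to +0.0255; of all start bins 13.5%, 40.1%, 70.1% and 73.3% passed. For bin pairs at pre-S, TMM factors gave 23, bins of 100 kb 22, DESeq2 13, no background filter 1, the replicate block 1 and offsets within distance classes 0; at imminent division TMM factors gave 44, bins of 100 kb 54 and DESeq2 26. Of all bin pairs, 1.63% and 4.47% passed with TMM factors, 10.9% and 18.8% with bins of 100 kb and 0.457% and 1.37% with DESeq2. Over all bin pairs within 2 Mb that passed, 50.9% rose at pre-S, against 21.7% with TMM factors and 2.4% with DESeq2, and 37.7% at imminent division, against 0.5% with DESeq2. For the compartment, quantile normalization gave 2 genes at pre-S and 1 at imminent division (34.1% and 39.9% of all bins passed). Bins of 250 kb gave 10 and 6 (64.2% and 69.4% of all bins passed), and the replicate block 0 at pre-S. For insulation, quantile normalization gave 5 genes at imminent division (46.1% of all bins passed) and turned Egr2 to +0.0213 and Egr3 to +0.0602 at pre-S and Egr2 to +0.0186 at imminent division. For the boundary ratio, no fold threshold gave 1 gene at 10 h, where 5.36% of all regions passed. The causes were not tested.

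Leaving out each library in turn (a lone library is then assumed to vary like the rest) gave, for summed contacts, 0 to 0 genes at 10 h, 2 to 3 at pre-S, 3 to 4 at imminent division and 0 to 0 for imminent division versus pre-S. Egr1 lost its call at pre-S without replicate 2 of 3 h or either pre-S library, and at imminent division without replicate 2 of either group. Bin pairs numbered 0 to 0, 0 to 2 and 1 to 11; none passed at pre-S without replicate 1 of 3 h or either pre-S library, and at imminent division 1 to 3 passed without any one 3 h or imminent division library. The compartment gave 0 to 0, 0 to 6 (6 without replicate 1 of 3 h) and 0 to 1 genes, insulation 0 to 1, 8 to 10 and 7 to 9, and the boundary ratio 0 to 0, 0 to 0 and 3 to 4. In insulation Egr2 lost its pre-S call without any one 10 h or pre-S library or replicate 1 of 3 h, Jun its pre-S call without replicate 2 of pre-S, and Egr2 and Batf theirs at imminent division without replicate 1 of 3 h or of imminent division.

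Replicate numbers did not pair the libraries (correlations of deviations -0.44 to 0.136). With the replicate block 4 of the 14 bin pairs lost their calls, as did Egr3 in the compartment and Egr2 in insulation at pre-S.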
